A study of Homo sapiens with 24 samples.

Results

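Pacritinib was compared directly with momelotinib after 48 h of treatment in HEL cells, an established human erythroleukaemia line that carries an activating mutation of JAK2. The comparison rests on 4 of the series' 24 libraries: 2 from cells given 500 nM pacritinib for 48 h and 2 from cells given 500 nM momelotinib for 48 h. The members are the expressed genes, and 16076 of the 34213 genes in the count table passed the filter on low counts and were tested. Dose and time are therefore matched, and no control library is shared between the 2 arms. The other libraries of the series hold DMSO, ruxolitinib, fedratinib and itacitinib at 48 h and all 6 treatments at 4 h, with 2 libraries in each group. Of these, the 2 DMSO libraries at 48 h (0 nM inhibitor) and the pacritinib and momelotinib libraries at 4 h are used below for reference. All groups are the same unmodified cell line, and the labels do not say whether the replicates were separate cultures, so any p-value here reflects just the variation from library to library, which may be technical.

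JAK2 is the tyrosine kinase through which the erythropoietin, thrombopoietin and related receptors signal, and its activation in myeloproliferative disease drives STAT transcription factors, which switch on feedback genes such as CISH, SOCS2 and PIM1. Both compounds inhibit JAK2 and, as background, both are also known as inhibitors of the bone morphogenetic protein (BMP) receptor kinase ACVR1. Momelotinib additionally inhibits JAK1, whereas pacritinib largely spares JAK1 and is known to inhibit FLT3, IRAK1 and CSF1R. Both molecules are built on an anilinopyrimidine core: in pacritinib the core is closed into a macrocycle, and momelotinib is an open molecule with a morpholine at one end and a cyanomethyl amide at the other.

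The 4 libraries held between 32621857 and 39105677 counts. The 18 erythroid and megakaryocyte markers chosen for HEL were detected, with a summed level of 6335 to 6395 CPM (counts scaled to the library's total) with pacritinib and 6048 to 6100 with momelotinib. Of 19 markers of other cell types, none was at 0 in all libraries, and their sum was 164 to 169 CPM with pacritinib and 221 to 222 CPM with momelotinib. Most of that sum was PECAM1, an adhesion molecule of endothelium and platelets, while MS4A1 and ALB were at or near 0. On the first principal component of log2 CPM, which held 41.5% of the variance, the 2 pacritinib libraries lay on one side and the 2 momelotinib libraries on the other. The second component, with 30.4%, separated the 2 pacritinib libraries from each other. The share of counts on mitochondrially encoded mRNAs was 3.31% and 3.17% with pacritinib against 2.55% and 2.37% with momelotinib, and the share on the signal recognition particle RNA genes (RN7SL) was 4.52% and 4.76% against 4.01% and 3.78%.

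At 48 h, 1297 genes differed between the inhibitors at an adjusted p under 0.05 (edgeR quasi-likelihood test with Benjamini-Hochberg adjustment), 8.07% of the genes tested. Of these, 532 (3.31%) were higher and 765 (4.76%) lower with pacritinib. These shares of all tested genes are the background for the gene lists below. Genes that passed this threshold are referred to as called, and every log2 fold change is pacritinib over momelotinib unless DMSO is named. Most differences were small: the median absolute log2 fold change of called genes was 0.31, 203 called genes differed at least 1.5-fold and 65 at least 2-fold, of which 21 were higher and 44 lower. The median over all tested genes was 0.00. Leaving out 1 library lowered the count of called genes to 496 without pacritinib replicate 1, 981 without pacritinib replicate 2, 694 without momelotinib replicate 1 and 604 without momelotinib replicate 2, and the share called higher fell from 41.0% to between 28.0% and 39.0%.

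**Figure D1:**
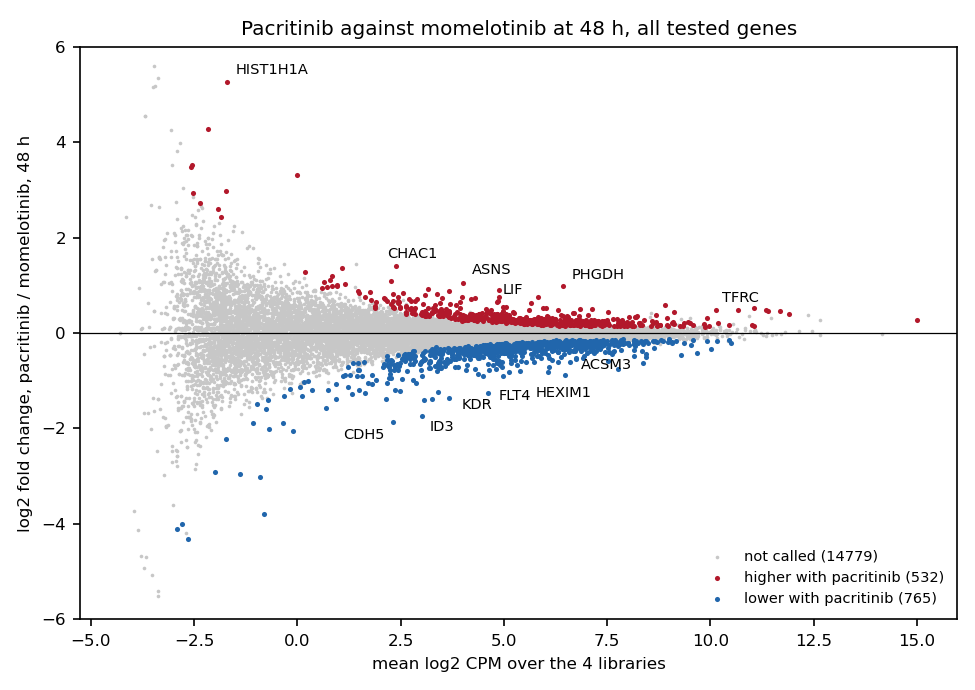
Log2 fold change (pacritinib over momelotinib at 48 h, vertical axis) against mean log2 CPM of the 4 libraries (horizontal axis), with 1 point per tested gene: the 532 genes called higher in red, the 765 called lower in blue, the others in grey. Most coloured points lie close to 0, and the labelled genes of amino acid metabolism (ASNS, PHGDH, CHAC1) stand above and ID3, KDR, FLT4 and CDH5 below the rest; the outlying HIST1H1A rests on 1 library.

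The most frequently called list on the higher side was the transcriptional programme of ATF4. Cells translate this factor when amino acids are short or the integrated stress response is active. The list's median log2 fold change was 0.38 against 0.00 for all genes. Of 27 tested members, 16 were higher with pacritinib (59.3%, against 3.31% of all genes) and none lower. Among them were the enzymes of serine and asparagine synthesis (PHGDH, PSAT1, PSPH, ASNS), the transporters SLC7A11, SLC7A5, SLC3A2 and SLC7A1, mitochondrial one-carbon enzymes (SHMT2, MTHFD2) and ATF4. The largest was CHAC1, which degrades glutathione. It measured 9.73 and 7.20 CPM in the 2 pacritinib libraries and 3.17 and 3.20 CPM in the 2 momelotinib libraries, a log2 fold change of 1.401 (SE 0.173, adjusted p = 8.32e-07). ASNS, asparagine synthetase, measured 25.03 and 21.7 CPM against 11.4 and 11.0 CPM (log2 fold change 1.06, SE 0.124, adjusted p = 3.49e-07). In both genes each pacritinib library was above both momelotinib libraries, a separation that 25% of all tested genes showed in this direction.

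Promoters of these genes are shown because the list is defined by one factor. The first RefSeq promoter entry of ASNS (GRCh38.p14, chr7:97872359-97872658, minus strand) and the entry of CHAC1 (chr15:40953221-40953520, plus strand) lie at genes annotated by GENCODE 29 at chr7:97852118-97872542 and chr15:40952962-40956519; each runs 5′ to 3′ from 250 bases before to 50 bases after the annotated start, and capitals mark the only match to the core of the composite site that ATF4 is known to bind, TGATGNAA, searched on both strands.
ASNS: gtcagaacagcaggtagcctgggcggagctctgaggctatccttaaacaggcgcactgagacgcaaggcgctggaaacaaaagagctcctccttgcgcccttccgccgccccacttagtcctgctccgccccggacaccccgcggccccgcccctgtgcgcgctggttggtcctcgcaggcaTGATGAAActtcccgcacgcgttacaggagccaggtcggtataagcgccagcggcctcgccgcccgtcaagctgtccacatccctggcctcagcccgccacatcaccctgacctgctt
CHAC1: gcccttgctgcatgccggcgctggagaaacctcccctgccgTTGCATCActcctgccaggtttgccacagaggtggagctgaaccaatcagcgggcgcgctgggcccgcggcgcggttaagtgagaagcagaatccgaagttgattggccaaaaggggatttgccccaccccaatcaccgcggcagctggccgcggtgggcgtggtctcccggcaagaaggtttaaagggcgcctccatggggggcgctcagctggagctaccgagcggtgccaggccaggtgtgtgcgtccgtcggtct
In ASNS the match lies 68 bases before the start on the gene's strand, and in CHAC1 it begins 209 bases before the start and reads on the opposite strand. The second promoter entry of ASNS and all 3 entries of CBS (log2 fold change 1.09), which were also searched, held no match. The same core occurs in 1270 of 35116 RefSeq promoters of this length, or 3.62%. Of the 16 called members of the list, 12 matched the promoter table by symbol and 4 of these held the core in at least 1 entry (ASNS, CHAC1, SLC3A2 and SLC7A1); of the 11 members not called, 10 matched and 1 held it (ATF3). These are descriptions of letters in a window, and ATF4 binding was not measured here.

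The 3 enzymes of serine synthesis (PHGDH, PSAT1 and PSPH) were all called. PHGDH, which commits glycolytic carbon to serine, measured 129 and 115 CPM with pacritinib and 63.5 and 59.1 CPM with momelotinib (log2 fold change 0.99, SE 0.0700, adjusted p = 1.32e-11). PSAT1, the transaminase of the second step, measured 77.2 and 69.7 against 41.0 and 45.9 CPM (log2 fold change 0.76, adjusted p = 3.54e-10). The groups did not overlap in either gene, and the DMSO libraries (52.4 and 52.9 CPM for PHGDH, 45.5 and 43.5 CPM for PSAT1) lay near or below the momelotinib values. The other called members with a log2 fold change over 0.7 were CBS, the first enzyme of transsulfuration, at 1.09, PCK2, the mitochondrial phosphoenolpyruvate carboxykinase, at 0.91, SLC7A11, the cystine-glutamate exchanger, at 0.88, and DDIT4, an inhibitor of mTORC1, at 0.80. CBS has a near-identical annotated copy, so its counts may be split between the copies. ATF4 itself, named after its values were seen, measured 494 and 444 against 357 and 365 CPM (log2 fold change 0.38, adjusted p = 7.17e-07). Among the members not called, SLC38A2, a glutamine carrier, had a log2 fold change of -0.04 (95% interval -0.18 to 0.09) and XPOT, which exports tRNA, 0.08 (-0.01 to 0.18). With any 1 library left out, 13 to 15 members of the list were called.

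The cytosolic aminoacyl-tRNA synthetases, many of which ATF4 is known to raise, moved the same way by less. Of 18 tested, 8 were higher (44.4%, against 3.31% of all genes) and none was lower. All 18 had a positive log2 fold change and the median was 0.12. The largest were CARS (46.2 and 41.1 against 31.6 and 33.5 CPM, log2 fold change 0.42, adjusted p = 4.77e-04), WARS (0.38), AARS (0.34) and GARS (0.29). TARS, the most abundant in CPM of those not called, had a log2 fold change of 0.10 (95% interval 0.00 to 0.20). The count of called synthetases was 5 without pacritinib replicate 1 and 6 to 9 without each other library. Among the 21 chaperones and effectors of the endoplasmic reticulum stress response, no member was higher with pacritinib. There 5 were lower (23.8%, against 4.76% of all genes). HSPA5, the chaperone that senses unfolded protein, measured 471 and 465 against 518 and 555 CPM (log2 fold change -0.20, adjusted p = 0.00223), and no member of that list was called without momelotinib replicate 2.

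**Figure D2:**
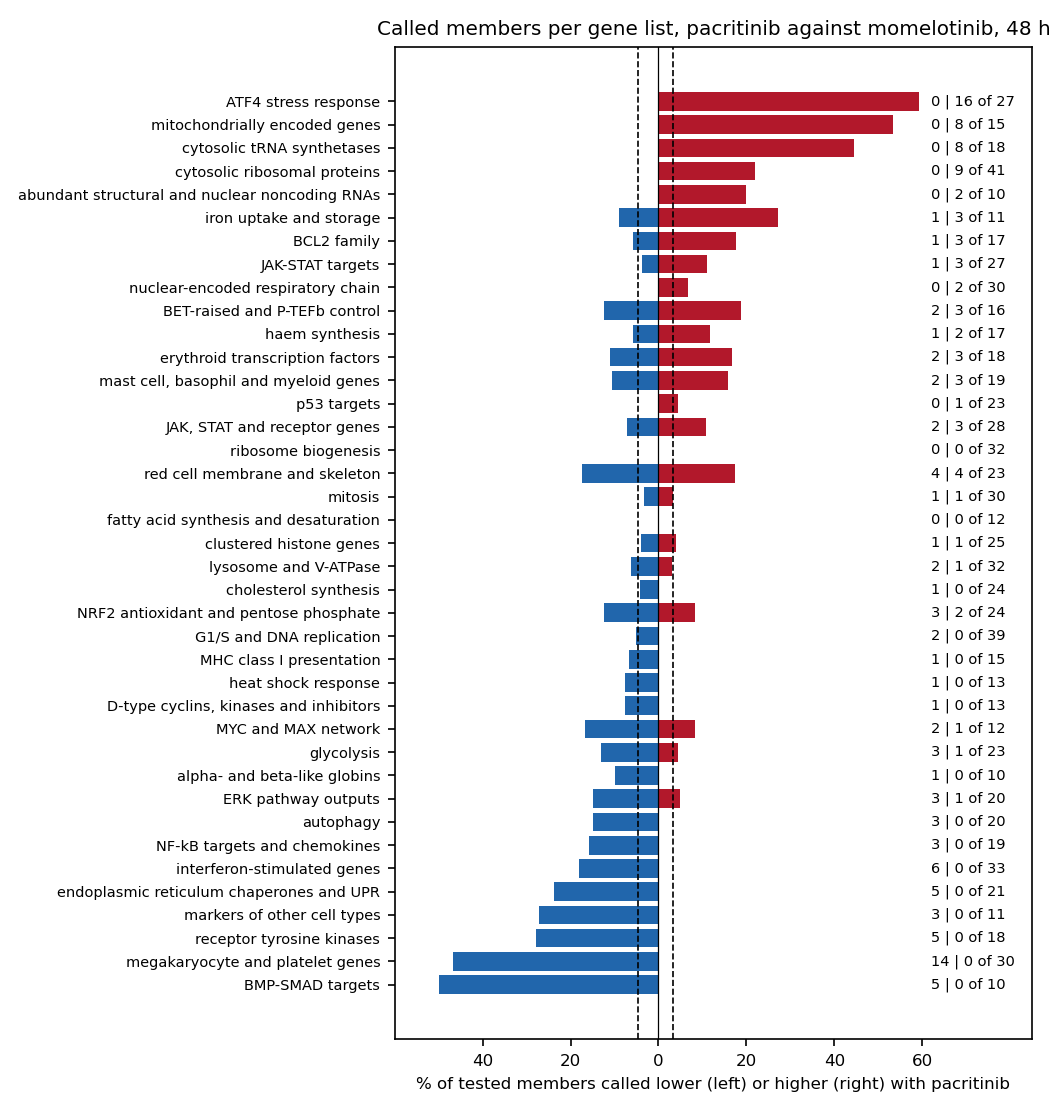
Percentage of each gene list's tested members called lower (blue, to the left) or higher (red, to the right) with pacritinib than with momelotinib at 48 h, for lists with at least 10 tested members, with the counts lower and higher at the right and the share over all genes as dashed lines. ATF4 genes (16 of 27), mitochondrially encoded genes (8 of 15) and tRNA synthetases (8 of 18) lie far to the right, and BMP-SMAD targets (5 of 10) and megakaryocyte genes (14 of 30) far to the left.

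The targets and regulators of BMP signalling were lower with pacritinib, with a median log2 fold change of -0.36. Of 10 tested members, 5 were called lower (50%, against 4.76% of all genes) and none higher. The inhibitor of DNA binding genes, which encode helix-loop-helix proteins and are among the most direct SMAD targets, differed most. ID3 (chr1:23557918-23559794) measured 3.51 and 5.26 CPM with pacritinib, 15.1 and 14.5 CPM with momelotinib and 17.8 and 17.8 CPM with DMSO, a log2 fold change between the inhibitors of -1.74 (SE 0.128, adjusted p = 2.91e-11). Both pacritinib libraries lay far below the 4 others, and 25.3% of all tested genes had both pacritinib libraries below both momelotinib libraries. ID2 measured 6.22 and 7.65 against 16.3 and 16.4 CPM (log2 fold change -1.23, adjusted p = 5.99e-09), and ID1 50.7 and 64.0 against 78.2 and 79.9 CPM (log2 fold change -0.46, adjusted p = 6.75e-05). BAMBI, a decoy receptor of the pathway (-0.48), and SMAD6, an inhibitory SMAD (-0.26), were also called lower. The receptor ACVR1, itself a known target of both compounds, did not pass the test (18.0 and 17.3 against 20.3 and 17.4 CPM, log2 fold change -0.09, 95% interval -0.27 to 0.08). The 5 calls held in every alternative tried, including each left-out library. The annotated start regions of the genes that differed most are shown for comparison with ASNS and CHAC1: ID3 (GRCh38.p14, chr1:23559452-23559751, minus strand) and ID2 (chr2:8681806-8682105, plus strand, chosen after its values were seen) hold no match to GGCGCC, a GC-rich element that SMAD proteins are known to bind and that 19.2% of the 35116 promoters hold on either strand, so nothing is in capitals.
ID3: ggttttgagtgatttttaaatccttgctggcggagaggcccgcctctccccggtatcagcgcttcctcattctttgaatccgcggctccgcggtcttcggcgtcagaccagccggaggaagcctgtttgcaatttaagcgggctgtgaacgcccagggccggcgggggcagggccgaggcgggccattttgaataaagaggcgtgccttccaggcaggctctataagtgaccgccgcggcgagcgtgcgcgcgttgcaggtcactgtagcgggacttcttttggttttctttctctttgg
ID2: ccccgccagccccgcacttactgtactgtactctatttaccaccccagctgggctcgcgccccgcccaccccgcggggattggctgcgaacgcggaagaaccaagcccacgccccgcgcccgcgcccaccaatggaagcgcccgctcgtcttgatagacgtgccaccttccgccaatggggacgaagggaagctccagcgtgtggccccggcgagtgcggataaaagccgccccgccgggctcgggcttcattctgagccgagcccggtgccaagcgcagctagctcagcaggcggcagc
Of the 5 called members of the list 1 held GGCGCC (BAMBI), and of the 5 not called 2 did (ACVR1 and BMPR2).

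**Figure D3:**
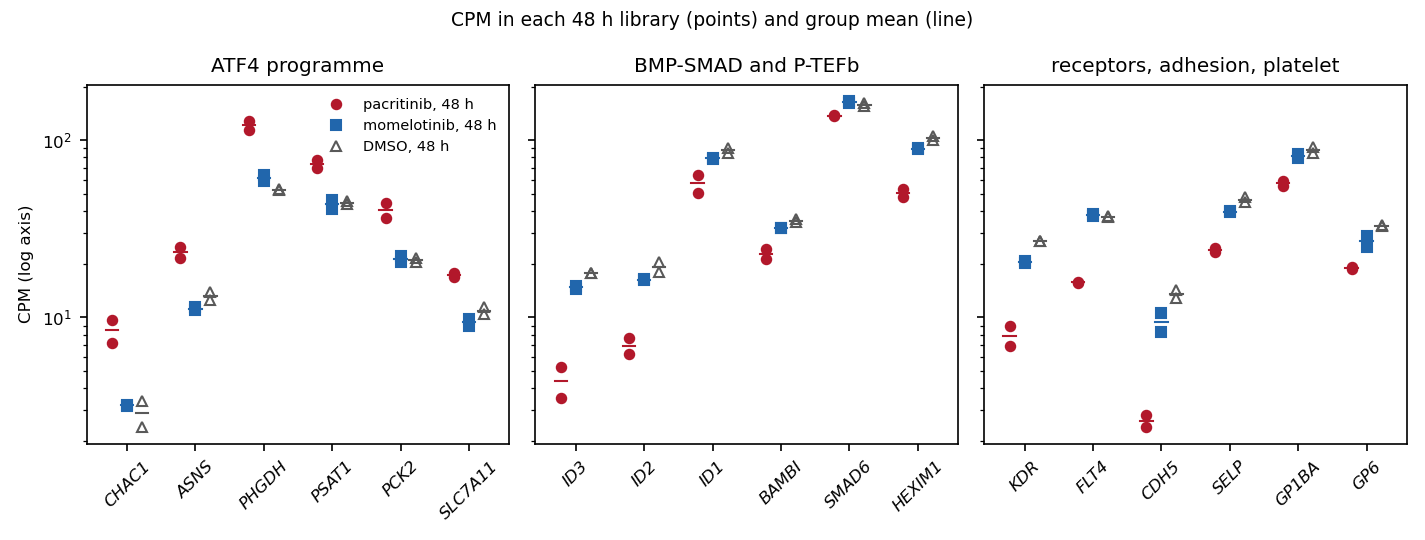
CPM on a log axis for 18 genes in each 48 h library (points; pacritinib red circles, momelotinib blue squares, DMSO grey triangles) with the mean of the 2 libraries as a short line. Momelotinib lies close to DMSO in most genes, whereas the pacritinib libraries lie apart, above in the ATF4 genes and below in the BMP-SMAD genes and in KDR, FLT4, CDH5 and the platelet genes.

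HEXIM1, which holds the transcription elongation factor P-TEFb in its inactive form, was lower with pacritinib. It measured 47.7 and 53.3 CPM against 90.5 and 89.0 CPM with momelotinib and 106 and 99.8 CPM with DMSO (log2 fold change between the inhibitors -0.83, SE 0.0604, adjusted p = 2.85e-11). HEXIM1 is on the list for P-TEFb control and response to bromodomain inhibitors, which was chosen with earlier results of these data known. Of its 16 tested genes, 3 were higher and 2 lower, HEXIM1 among them. These are 18.8% and 12.5%, against 3.31% and 4.76% of all genes. The higher ones encode parts of P-TEFb itself: CDK9 (0.19), CCNT1 (0.20) and CCNT2 (0.28). MEPCE, the capping enzyme of the 7SK RNA that HEXIM1 binds, was lower (-0.18). HIST1H2BK, a histone gene that bromodomain inhibitors are known to raise, did not pass the test (-0.11, 95% interval -0.23 to 0.02). With any 1 library left out the log2 fold changes of these 4 genes kept their sign, at 0.14 to 0.23 for CDK9, 0.13 to 0.25 for CCNT1, 0.24 to 0.31 for CCNT2 and -0.23 to -0.14 for MEPCE. Each call was lost without at least 1 library. CDK9 lost its call without pacritinib replicate 1 (adjusted p = 0.250) or momelotinib replicate 2 (0.192), and CCNT2 without pacritinib replicate 1 (0.0971) or momelotinib replicate 1 (0.0580). CCNT1 lost it without pacritinib replicate 2 (0.343) or either momelotinib library (0.198 and 0.126), and MEPCE without any 1 of the 4 libraries, with adjusted p-values of 0.0559 to 0.357.

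KDR, FLT4 and CDH5, grouped here after their values were seen and on no common list, were each at least 2-fold lower. KDR, the main receptor for vascular endothelial growth factor (chr4:55078259-55125595), measured 6.87 and 8.91 CPM with pacritinib, 20.7 and 20.3 CPM with momelotinib and 27.1 and 26.9 CPM with DMSO (log2 fold change between the inhibitors -1.37, SE 0.107, adjusted p = 1.16e-10). FLT4, the lymphatic receptor of the same family, measured 15.8 and 15.7 against 37.4 and 38.5 CPM (log2 fold change -1.27, SE 0.0838, adjusted p = 4.65e-12). CDH5, the cadherin of endothelial junctions, measured 2.80 and 2.39 against 8.28 and 10.6 CPM (log2 fold change -1.87, SE 0.158, adjusted p = 5.33e-10). In all 3 genes the pacritinib and momelotinib libraries were far apart, and in KDR and CDH5 the momelotinib libraries were also below both DMSO libraries. PECAM1 differed by less, with 127 and 127 against 168 and 170 CPM (log2 fold change -0.41, adjusted p = 9.01e-08). CDH5 and PECAM1 belonged to the markers of other cell types. Of the 11 tested, 3 were called lower (27.3%, against 4.76% of all genes) and none higher. The remaining one was CD79A, a B cell receptor component (3.26 and 3.68 against 6.20 and 6.50 CPM, log2 fold change -0.87, adjusted p = 4.67e-04). A different number of cells of a type cannot be told apart from a different amount of RNA per cell in these bulk samples.

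Among 18 tested receptor tyrosine kinases, 5 were lower (27.8%, against 4.76% of all genes) and none higher. Beside KDR these included PDGFRB, a platelet-derived growth factor receptor (-1.05), TEK, the angiopoietin receptor (-0.66), and the ephrin receptor EPHB4 (-0.33). TEK lost its call without pacritinib replicate 2 (adjusted p = 0.0766) or momelotinib replicate 2 (0.0614). Of the list, 4 members were called with any 1 library left out. KIT, the stem cell factor receptor, measured 54.5 and 52.7 against 53.6 and 54.0 CPM, with a log2 fold change of -0.01 and a 95% interval of -0.13 to 0.12.

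Megakaryocyte and platelet genes were lower as a group: 14 of 30 tested were called lower (46.7%, against 4.76% of all genes) and none higher. The median log2 fold change was -0.22. The called members included 3 subunits of platelet receptors for von Willebrand factor and collagen. GP1BA measured 55.6 and 58.7 CPM with pacritinib and 79.6 and 83.6 CPM with momelotinib (log2 fold change -0.51, SE 0.0549, adjusted p = 5.82e-08). GP9 had a log2 fold change of -0.52 and GP6 of -0.51. SELP, the P-selectin of platelet granules, measured 23.5 and 24.5 against 39.3 and 39.9 CPM (log2 fold change -0.72, adjusted p = 1.86e-07). TREML1, another platelet granule receptor, had the largest difference of the called members (-1.20, SE 0.182). MEIS1, a homeobox factor of the lineage, was lower by less (-0.30). ITGA2B, the integrin subunit by which megakaryocytes are usually recognised, measured 770 and 783 against 775 and 777 CPM, a log2 fold change of 0.00 with a 95% interval of -0.09 to 0.09. The count of called members was 9 without pacritinib replicate 1 and without momelotinib replicate 2, and 10 or 11 without each of the other libraries.

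Of 27 tested genes that report JAK-STAT activity, 23 were not called. With pacritinib 3 were higher (11.1%, against 3.31% of all genes) and 1 was lower (3.7%, against 4.76%), with a median log2 fold change of 0.01. The lower one was ID1, which is also counted among the BMP-SMAD genes above. The higher ones were 2 cytokines and a feedback inhibitor: OSM (7.54 and 8.04 against 4.48 and 4.18 CPM, log2 fold change 0.85, adjusted p = 4.54e-04), LIF (37.0 and 34.2 against 24.99 and 20.7 CPM, 0.64, adjusted p = 2.61e-04) and SOCS2 (0.28, adjusted p = 0.0264). The call of SOCS2 was lost without pacritinib replicate 2 (adjusted p = 0.317), momelotinib replicate 1 (0.153) or momelotinib replicate 2 (0.148). PIM1, a survival kinase, measured 623 and 640 against 562 and 567 CPM (log2 fold change 0.16, 95% interval 0.05 to 0.27, adjusted p = 0.0555). CISH (0.20, 0.05 to 0.35) and SOCS3 (0.32, 0.09 to 0.56) also fell short of the threshold. In PIM1, CISH and SOCS3 both pacritinib libraries were above both momelotinib libraries, a separation that 25% of all tested genes showed. PIM1 was called under 7 of the alternatives tried and not under the others. With any 1 library left out, the log2 fold change was 0.14 to 0.18 for PIM1, 0.17 to 0.22 for CISH and 0.30 to 0.33 for SOCS3. CCND2, a cyclin that STAT5 is known to raise, had a log2 fold change of -0.06 (-0.17 to 0.04).

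Among 28 tested JAK, STAT and cytokine receptor genes, 3 were higher (10.7%, against 3.31% of all genes) and 2 lower (7.14%, near the 4.76% of all genes). IFNGR2, the signalling chain of the interferon gamma receptor, measured 14.9 and 14.2 against 8.84 and 8.62 CPM (log2 fold change 0.73, adjusted p = 2.00e-05). CSF2RB, the shared receptor chain for interleukin 3, interleukin 5 and GM-CSF, measured 104 and 108 against 83.2 and 80.8 CPM (0.37, adjusted p = 6.15e-06), and STAT5B differed by 0.18. IL21R was lower (-0.54), as was JAK1 (-0.18, adjusted p = 0.0172). STAT5B lost its call without pacritinib replicate 1 (adjusted p = 0.109) and momelotinib replicate 1 (0.107), and JAK1 without pacritinib replicate 1 (0.0936), pacritinib replicate 2 (0.0766) and momelotinib replicate 2 (0.221). JAK2 measured 171 and 162 against 182 and 180 CPM (log2 fold change -0.12, 95% interval -0.23 to -0.01, adjusted p = 0.202).

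Of 20 genes read as outputs of ERK signalling, 3 were lower (15%, against 4.76% of all genes) and 1 higher (5%, near 3.31%). The lower ones were phosphatases that act on MAP kinases: DUSP6 measured 5.08 and 6.23 against 7.34 and 8.07 CPM (log2 fold change -0.44, adjusted p = 0.0223), DUSP5 differed by -0.60 and the weakly expressed DUSP4 by -1.19. DUSP6 and DUSP5 lost their calls without pacritinib replicate 1 (adjusted p = 0.304 and 0.196) or momelotinib replicate 2 (0.213 and 0.122), and DUSP4 without pacritinib replicate 1 (0.336) or momelotinib replicate 1 (0.246). Of 19 NF-kB targets and chemokines, 3 were lower (15.8%, against 4.76% of all genes) and none higher. IL1B, the inflammatory cytokine, measured 20.5 and 25.1 CPM with pacritinib, 34.8 and 36.1 CPM with momelotinib and 54.2 and 48.7 CPM with DMSO (log2 fold change between the inhibitors -0.63, adjusted p = 1.39e-06), and TNFAIP2 differed by -0.48. NFKBIE, an inhibitor of NF-kB, differed by -0.51 and lost its call without momelotinib replicate 2 (adjusted p = 0.0696). The kinase gene IRAK1 measured 204 and 198 against 194 and 198 CPM, with a log2 fold change of 0.04 and a 95% interval of -0.06 to 0.13. In the BCL2 family, 3 of 17 tested genes were higher (17.6%, against 3.31% of all genes) and 1 lower (5.88%, near 4.76%). The lower one, the weakly expressed BMF, differed by more than any of the 3 higher ones. PMAIP1, which encodes NOXA, was higher. It measured 40.2 and 36.5 against 28.0 and 29.9 CPM (log2 fold change 0.40, adjusted p = 1.91e-04). BCL2L1 had a log2 fold change of -0.05 (95% interval -0.14 to 0.04).

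Interferon-stimulated genes were lower or did not pass the test: 6 of 33 were called lower (18.2%, against 4.76% of all genes) and none higher. The median log2 fold change was -0.16. IFI6 measured 25.03 and 25.3 CPM with pacritinib and 39.4 and 36.9 CPM with momelotinib (log2 fold change -0.60, adjusted p = 7.90e-07). The antiviral membrane proteins IFITM1 (-0.55), IFITM2 (-0.25) and IFITM3 (-0.52) were lower as well, and their sequences are similar enough that reads may be shared between them. MX2, an antiviral GTPase (-0.10, 95% interval -0.20 to 0.00), did not pass the test. The count of called members was 4 without pacritinib replicate 1, pacritinib replicate 2 or momelotinib replicate 2, and 5 without momelotinib replicate 1. GBP4, an interferon-inducible GTPase that was not on the list, was among the 12 largest differences on the lower side (13.3 and 17.6 against 27.1 and 29.04 CPM, log2 fold change -0.85).

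The erythroid genes were mixed. TFRC, the transferrin receptor that brings iron into the cell, measured 1370 and 1282 CPM with pacritinib and 943 and 956 CPM with momelotinib (log2 fold change 0.48, SE 0.0474, adjusted p = 1.20e-08). FTL, the ferritin light chain that stores iron, moved the other way (1356 and 1334 against 1549 and 1573 CPM, -0.21, adjusted p = 3.14e-04). HMOX1, which breaks down haem, was lower (-0.74, adjusted p = 3.76e-04) and lost its call without pacritinib replicate 1 (adjusted p = 0.0528). ERFE, the hormone by which erythroblasts lower hepcidin, measured 2.99 and 2.34 against 1.33 and 0.983 CPM (1.20, adjusted p = 0.00640) and lost its call without pacritinib replicate 1 (0.117) or momelotinib replicate 2 (0.136).

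Of 10 tested globin genes only HBE1, the embryonic epsilon globin, was called (176 and 173 against 228 and 231 CPM, log2 fold change -0.39, adjusted p = 5.97e-05). The fetal HBG2 measured 1720 and 1750 against 1800 and 1734 CPM (-0.03, 95% interval -0.15 to 0.10), a gene whose near-identical neighbour HBG1 shares its reads. Red cell membrane genes divided evenly, with 4 of 23 higher and 4 lower (17.4% each, against 3.31% and 4.76% of all genes). EPB42 (-0.39) and RHD (-0.34) were lower, and the glycophorin GYPB (0.28) and XK (0.27) higher. GYPB and XK lost their calls without pacritinib replicate 1 (adjusted p = 0.198 and 0.0599), and the glycophorins and the RH genes are close paralogues. Among 18 erythroid transcription factors, 3 were higher (16.7%) and 2 lower (11.1%), against 3.31% and 4.76% of all genes. GATA2, a factor of progenitors, was higher (1258 and 1247 against 1087 and 1069 CPM, 0.22, adjusted p = 0.00147), as was its partner LMO2 (0.29). GATA1 (-0.05, 95% interval -0.15 to 0.05) and KLF1 (0.07, -0.04 to 0.19) did not pass the test.

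All 15 tested mitochondrially encoded genes had a positive log2 fold change, with a median of 0.41 against 0.00 for all genes. Of these, 8 were called higher (53.3%, against 3.31% of all genes). The genes share 1 genome and the libraries differed in their total share of its mRNAs, so the 15 signs are not separate observations. MT-ND1, a subunit of complex I, measured 2636 and 2554 CPM with pacritinib, 1846 and 1741 CPM with momelotinib and 1505 and 1557 CPM with DMSO (log2 fold change between the inhibitors 0.53, SE 0.131, adjusted p = 0.00795). MT-CO2 had a log2 fold change of 0.46. The call count of this list depended on the test and on single libraries: it was 1 with DESeq2, 15 without a filter on low counts, 2 without pacritinib replicate 1, 5 without pacritinib replicate 2, 5 without momelotinib replicate 1 and 1 without momelotinib replicate 2. The libraries' shares of RN7SL counts moved with these genes (4.52% and 4.76% against 4.01% and 3.78%), and RN7SL1 itself was called higher (0.28, adjusted p = 0.0327), a call lost without any 1 of the 4 libraries (adjusted p = 0.0779 to 0.271). Whether this has a part in the result was not tested. Nuclear-encoded respiratory chain genes were called higher in 2 of 30 cases, 6.67%, near the background of 3.31%, with a median of 0.04. Cytosolic ribosomal protein genes were positive in 40 of 41 cases with a median of 0.09, and 9 were called higher (22%, against 3.31% of all genes). The largest was RPL12 (0.21). That count was 0 without pacritinib replicate 1, 1 without momelotinib replicate 1, 0 without momelotinib replicate 2 and 11 without pacritinib replicate 2.

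Several lists held shares of calls near or below the background. Of 39 genes of the G1/S transition and DNA replication, 2 were lower (5.13%, near the 4.76% of all genes) and none was higher. The larger was RRM2, the ribonucleotide reductase subunit, at -0.30 (adjusted p = 5.10e-06). Of 30 mitosis genes 1 was higher and 1 lower (3.33% each, against 3.31% and 4.76% of all genes). None of 32 ribosome biogenesis genes and none of 12 fatty acid synthesis genes was called, with median log2 fold changes of 0.01 and 0.00, and their members ranged from -0.11 to 0.17 and from -0.11 to 0.06. Of 24 cholesterol synthesis genes 1 was called, on the lower side (4.17%). Simulated counts had the momelotinib means in both groups, the spread estimated over all 24 libraries, and changes only in genes averaging above 1 CPM. There the test recovered 50.7% of genes changed 1.25-fold, 74.6% of those changed 1.5-fold and 98.5% of those changed 2-fold. The changed genes were drawn at random from all such genes and not from these lists. The recovery for members of these lists was therefore not tested, and small differences in them may have been missed.

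The remaining genes with large differences given here belonged to no list. ZNF467, a zinc finger factor, measured 4.87 and 5.44 CPM with pacritinib and 13.7 and 13.6 CPM with momelotinib (log2 fold change -1.398, adjusted p = 8.45e-10), and IGFBP4, which binds insulin-like growth factors, measured 4.96 and 6.99 against 15.1 and 16.3 CPM (-1.38, adjusted p = 4.98e-09). NPY1R, a neuropeptide Y receptor (-0.90) and MYO3B, an unconventional myosin (-0.89), were also lower. On the higher side were CR1, the complement receptor of red cells (13.9 and 10.7 against 6.51 and 6.38 CPM, 0.93, adjusted p = 5.61e-06), SEMA3C, a secreted guidance molecule (0.76), and ASB1, which carries a SOCS box (0.74). The pair RF00003 and SNORD3B-2, short structural RNAs of multicopy families, completed the 12 largest on the higher side. The largest called value of any list member, 5.26 for the histone gene HIST1H1A, rested on 1 library: pacritinib replicate 2 measured 6.23 CPM and the other pacritinib library 0.0308 CPM, against 0.0834 and 0.0756 CPM with momelotinib, and without that library the value was -1.29.

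Against DMSO at 48 h, 2948 genes (18.3%; 8.26% higher and 10.1% lower) were called with pacritinib and 312 (1.94%; 0.995% higher and 0.946% lower) with momelotinib. These counts share the 2 DMSO libraries and are given side by side only. The splits below also reuse the pacritinib and momelotinib libraries that selected the genes. A call against DMSO in the same direction was thus favoured in advance, and the splits are descriptions only. Of the 532 genes higher with pacritinib than with momelotinib, 400 were called higher with pacritinib against DMSO and not called with momelotinib, 112 were called in neither, 10 were called higher with both and 10 were called lower with momelotinib alone. Of the 765 lower genes, 560 were called lower with pacritinib against DMSO alone, 144 in neither, 29 lower with both, 28 higher with momelotinib alone and 4 in opposite directions. The count of genes called with momelotinib against DMSO was 25 without momelotinib replicate 1 and 77 without momelotinib replicate 2, and 58 and 49 without DMSO replicate 1 and DMSO replicate 2. The count with pacritinib was 1492 without pacritinib replicate 1 and 1851 and 1647 without DMSO replicate 1 and DMSO replicate 2.

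For the genes described above, the values against DMSO were as follows. ASNS had a log2 fold change of 0.82 with pacritinib (adjusted p = 9.68e-06) and -0.24 with momelotinib (adjusted p = 0.399), and ID3 had -2.01 (adjusted p = 4.37e-13) and -0.26 (adjusted p = 0.226). KDR was lower with both, by -1.77 with pacritinib and -0.40 with momelotinib (adjusted p = 1.59e-13 and 0.0210), as was DUSP6 (-1.18 and -0.73, adjusted p = 1.21e-08 and 3.53e-04). LIF was higher with both (1.398 and 0.76, adjusted p = 4.64e-10 and 6.66e-04). The 4 genes called in opposite directions were ACSM3, a mitochondrial acyl-CoA synthetase, ITLN1, a lectin, FCGRT, the neonatal Fc receptor, and MICAL2, an actin-oxidising enzyme. ACSM3 measured 66.05 and 65.2 CPM with pacritinib, 103 and 105 CPM with DMSO and 125 and 116 CPM with momelotinib, so that the 3 groups did not overlap (log2 fold change -0.66 with pacritinib and 0.21 with momelotinib, adjusted p = 8.44e-11 and 0.0214). The values for ITLN1 were -0.33 and 0.45, for FCGRT -0.21 and 0.36, and for MICAL2 -0.22 and 0.21.

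**Figure D4:**
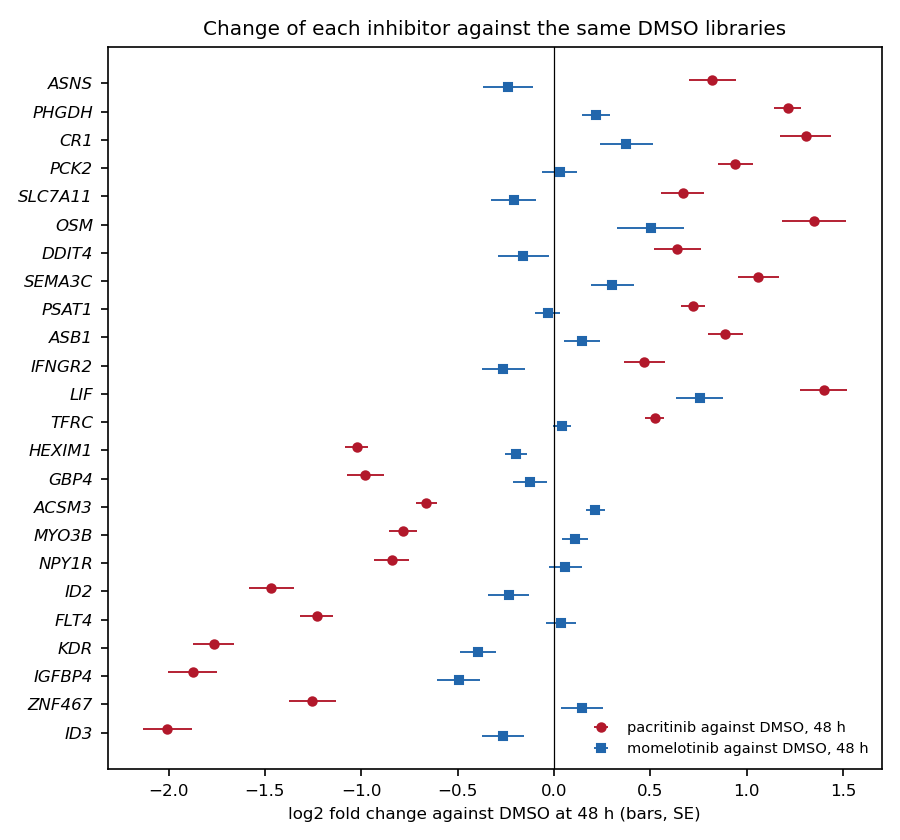
Log2 fold change of 24 genes against the 2 DMSO libraries at 48 h for pacritinib (red circles) and momelotinib (blue squares), with the standard error of the fit as bars and genes ordered by the difference between the inhibitors. The momelotinib values mostly lie near 0, LIF is above 0 for both compounds, and ACSM3 lies on opposite sides.

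At 4 h the same pair of inhibitors differed in more genes: 3331 (20.7%), of which 1279 (7.96%) were higher and 2052 (12.8%) lower with pacritinib. Of the 532 genes higher at 48 h, 165 (31.0%) were also called higher at 4 h and 31 lower, and of the 765 lower genes, 201 (26.3%) were also called lower and 31 higher. The difference itself changed between the times in 1607 genes (10%), upward in 6.03% and downward in 3.96% of those tested. Among the genes higher at 48 h, 140 had a larger value at 48 h than at 4 h by this test and 2 a smaller one. Among the lower ones 317 had a smaller value and 11 a larger one. The genes were selected by their 48 h difference, which also enters this test, so these directions were favoured in advance. The counts are not comparable with the shares of all genes. Without pacritinib replicate 2 at 4 h, 1645 genes were called at 4 h and 764 in the test of the change.

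At 4 h, 4 of the 10 BMP-SMAD genes were called lower (ID1, ID2, ID3 and SMAD6), against 12.8% of all genes, and BAMBI did not pass the test (-0.14, adjusted p = 0.220). ID3 differed by -1.74 at 4 h (3.15 and 3.44 against 10.3 and 11.7 CPM, adjusted p = 5.57e-11) and by -1.74 at 48 h, and the 95% interval of the change was -0.45 to 0.45. HEXIM1 differed by -1.52 at 4 h (32.7 and 27.6 against 86.8 and 85.7 CPM) and by -0.83 at 48 h, a change of 0.69 (adjusted p = 2.36e-06). Of the 27 ATF4 genes, 8 were called higher at 4 h (29.6%, against 7.96% of all genes) and 4 lower (14.8%, against 12.8%). CHAC1 (0.37), PCK2 (0.32) and SLC7A11 (0.31) were among the 8. ASNS and PHGDH were not called at 4 h and differed by less at 4 h than at 48 h. ASNS differed by 0.22 at 4 h (adjusted p = 0.187) and 1.06 at 48 h, a change of 0.83 (adjusted p = 0.00157). PHGDH differed by 0.16 and 0.99, a change of 0.83 (adjusted p = 1.12e-06). FLT4 (18.4 and 16.3 against 16.5 and 18.5 CPM at 4 h, change -1.25, adjusted p = 2.39e-08), CDH5 (change -1.79, adjusted p = 1.12e-06) and SELP (change -0.90, adjusted p = 3.49e-06) also differed at 48 h by more than at 4 h.

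Some genes changed sign. SOCS2 was lower with pacritinib at 4 h (-0.49, adjusted p = 6.91e-05) and higher at 48 h (0.28), a change of 0.76 (adjusted p = 3.74e-05), and SEMA3C went from -0.44 to 0.76 (change 1.20, adjusted p = 1.30e-06). GP6 was higher at 4 h (0.32, adjusted p = 0.00821) and lower at 48 h. Others differed at 4 h and did not pass the test at 48 h. LRRN2 had a log2 fold change of 0.93 at 4 h and -0.10 at 48 h (95% interval at 48 h -0.24 to 0.03). LIPC, hepatic lipase, went from 1.02 to -0.32 (-0.56 to -0.09), PHLDA1 from -1.13 to 0.19 (-0.11 to 0.48) and CCNE2, a cyclin of the G1/S transition, from -1.12 to -0.01 (-0.23 to 0.20). PHLDA1 and CCNE2 were lower with pacritinib at 4 h and LRRN2 and LIPC were higher.

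**Figure D5:**
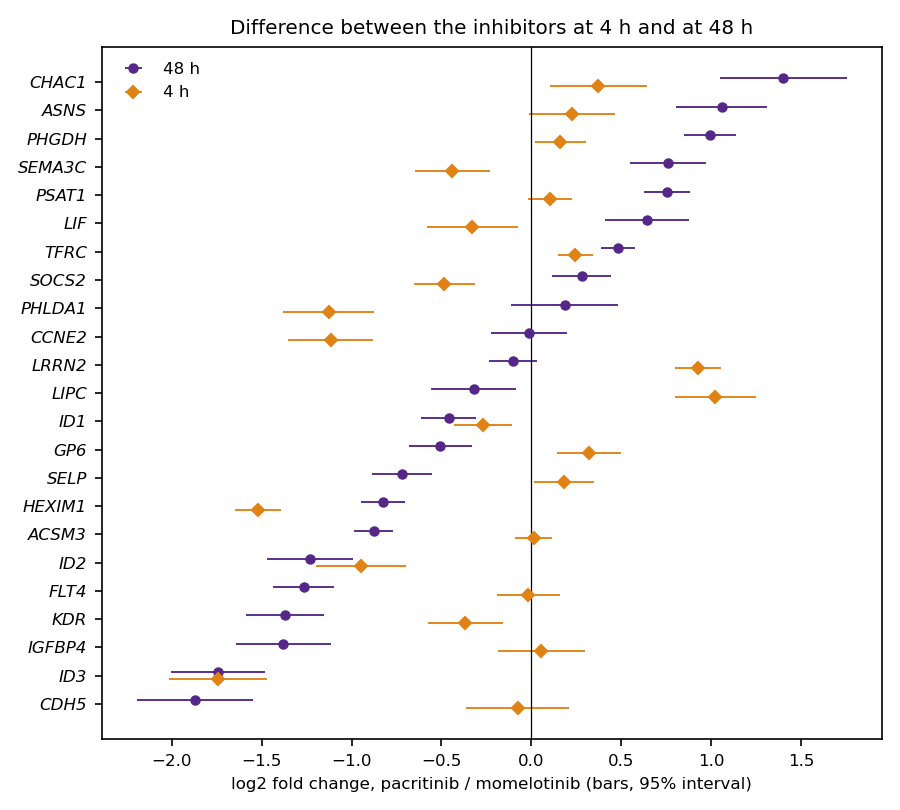
Log2 fold change of pacritinib over momelotinib for 23 genes at 48 h (purple circles) and at 4 h (orange diamonds), with 95% intervals as bars. ID3 and ID2 lie at similar values at both times, CDH5, FLT4, IGFBP4 and ASNS differ mainly at 48 h, and LRRN2, LIPC, PHLDA1 and CCNE2 mainly at 4 h.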

How the data were processed

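RNA from HEL cells was sequenced as described in the labels, and the authors deposited 1 table of counts per gene (whole numbers, not normalized) for 24 libraries. Per the submitters' processing notes, reads were demultiplexed with bcl2fastq and aligned with STAR 2.5.1a to GRCh38, and edgeR was used; for the counting tool, the annotation and the strand setting the sources used here give nothing, so reads of overlapping, antisense or near-identical genes could not be told apart. Groups were taken from the sample titles. The table's 34343 rows held 130 repeated gene identifiers, which left 34213 genes.

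All 24 libraries (12 groups of 2) were fitted in edgeR 4.0.16 (limma 3.58.1, R 4.3.3) with filterByExpr, TMM scaling, glmQLFit and glmQLFTest, with 1 mean per group and 12 residual degrees of freedom. Benjamini-Hochberg adjustment ran over the 16076 tested genes, and adjusted p under 0.05 was called. CPM values are TMM-scaled except for the summed markers. The same model tested pacritinib against momelotinib at 4 h, the change of that difference between 4 h and 48 h, and each inhibitor against DMSO at 48 h.

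Named genes were the 12 largest called differences in each direction whose libraries did not overlap between the groups and whose mean log2 CPM reached 3, up to 6 called and 2 abundant uncalled members per list, a short set of fixed JAK-STAT and lineage genes, genes called in opposite directions against DMSO and the largest changes between the times. ATF4, the grouping of CDH5 with KDR and FLT4, and list members given without values were chosen after their values were seen. A few genes that this rule names are not reported here. The members and lists were chosen with earlier results of these data known. Promoters came from RefSeq (GRCh38.p14) and gene positions from GENCODE 29; not all genes had a promoter entry.

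The 2 libraries of a group differed by more than sampling noise (chi-square per degree of freedom 5.49 for pacritinib and 3.77 for momelotinib, against 12.5 to 19.5 between the groups), so none was counted as a repeat of another. The test was tried on simulated counts for this comparison with 200 changed genes, in which 6 of 155 calls were false. Alternatives were DESeq2 1.42.0, RLE scaling, other filters on low counts, smaller sets of libraries, a replicate block, each library left out and, added after seeing the data, protein-coding nuclear genes only.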

Additional observations from a re-analysis of the deposited data

Results flagged for a closer look

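The following genes stood out because the difference between pacritinib and momelotinib itself differed between 4 h and 48 h (edgeR interaction test, adjusted p under 0.05). It was called in 10% of all tested genes. The value after each gene is the log2 fold change at 48 h minus that at 4 h, so a positive value means that pacritinib over momelotinib was higher at 48 h. Of the 108 genes given with values, 59 passed this test, and in 32 of them the point estimates at the 2 times had opposite signs. These genes were named partly for a large difference at 48 h, which enters this test, and partly for a large change between the times. The count of 59 is therefore not comparable with the 10% of all genes.

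Among amino acid and ATF4 genes these were CBS (1.14), CHAC1 (1.03), ASNS (0.83), PHGDH (0.83), DDIT4 (0.75), PSAT1 (0.65), PCK2 (0.59), SLC7A11 (0.56) and SLC38A2 (0.51) and the synthetase AARS (0.31). Cytokine, receptor and JAK-STAT genes were OSM (1.11), LIF (0.97), IFNGR2 (0.77), SOCS2 (0.76), CSF2RB (0.54), CISH (0.43), KIT (0.36), JAK1 (-0.23), IL1B (-0.73) and TNFAIP2 (-0.33). Elongation control genes were MEPCE (0.91) and HEXIM1 (0.69); their differences were larger at 4 h. Interferon-stimulated genes were IFI6 (-0.75), IFITM3 (-0.59), IFITM1 (-0.53), IFITM2 (-0.39) and GBP4 (-0.54).

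Genes of surface receptors and adhesion molecules were CDH5 (-1.79), FLT4 (-1.25), KDR (-1.004), PDGFRB (-0.71), PECAM1 (-0.45) and CD79A (-1.04). Platelet genes were TREML1 (-1.40), SELP (-0.90), GP6 (-0.82), GP9 (-0.46) and GP1BA (-0.41). Erythroid and iron genes were ERFE (1.62), KLF1 (0.39), TFRC (0.24), FTL (-0.25), RHD (-0.41), EPB42 (-0.40) and HBE1 (-0.57). Genes called in opposite directions against DMSO were ACSM3 (-0.89), ITLN1 (-0.76), FCGRT (-0.67) and MICAL2 (-0.51). The other genes were PHLDA1 (1.31), SEMA3C (1.20), CCNE2 (1.10), ASB1 (0.88), NPY1R (-0.51), MYO3B (-0.82), ZNF467 (-0.99), LRRN2 (-1.03), LIPC (-1.34) and IGFBP4 (-1.44).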

How the results depend on the processing

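With each library of the groups left out in turn, pacritinib against momelotinib at 48 h gave 496 to 981 called genes, the same comparison at 4 h 1645 to 2754, the change between the times 764 to 1448, pacritinib against DMSO 1492 to 2185 and momelotinib against DMSO 25 to 77. In those fits the lone library is assumed to vary like the other groups. Fitting only the libraries of the groups compared gave 2135 genes at 4 h and 1172 for momelotinib against DMSO, which was 516 with DESeq2 and 533 with the 48 h libraries alone; the cause was not tested. For pacritinib against momelotinib at 48 h the other alternatives gave 1278 (no filter on low counts) to 1667 (libraries of the groups compared only) called genes; DESeq2 called 1397, of which 1258 were among the 1297. The labels tie no shared batch to a replicate number, and the correlation of same-numbered deviations between pacritinib and momelotinib was 0.00194 at 48 h and 0.221 at 4 h, so the numbers were not taken as pairs at 48 h, and whether they pair the 4 h libraries is not settled. With a replicate block the counts were 1384 at 48 h, 3496 at 4 h, 1752 for the change between times, 3135 for pacritinib and 420 for momelotinib against DMSO, and 1293 of the 1384 were among the 1297.

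Of 86 called genes named with values, 64 kept their direction and call in all alternatives. HIST1H1A ranged from -1.29 (without pacritinib replicate 2) to 6.23 with a library left out. The other reversals were genes near 0 that were not called: with a library left out, ITGA2B ranged from -0.017 to 0.0063, KIT from -0.035 to 0.012, SLC38A2 from -0.146 to 0.037, ACVR1 from -0.204 to 0.011, PHLDA1 from -0.037 to 0.354 and CCNE2 from -0.107 to 0.068. ITGA2B was also -0.0029 without a filter on low counts, and KIT 0.00055 with the 48 h libraries alone and 7.31e-05 with protein-coding nuclear genes. Differences near 1.25-fold were recovered in 50.7% of simulated cases, so depth and 2 libraries a group limit what small differences can show.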
